A study of Homo sapiens with 2 samples.

Results

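NeuroD1 ChIP-seq peaks of IMR-32 cells formed 112 groups of 3 or more close peaks, which held 374 of the 6071 peaks kept (6.16%). Peaks on the same chromosome were joined when the gap between their edges was at most 0.0125 Mb, a distance often used to stitch enhancer elements into longer units, and joined groups of at least 3 peaks were kept. The 5 windows of chromosome 2 at 14.6 to 16, 29.5 to 29.7, 53.2 to 53.4, 66.5 to 67.5 and 68.9 to 69.2 Mb were left out, with 14 groups and 55 group peaks in them. The groups were chosen by the called positions of the peaks, so their number, spacing and peak strength in this library are given as a description and carry no test. Of the other peaks, 1066 lay in 533 groups of 2 (17.6% of the kept peaks) and 4631 were single (76.3%).

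The series comprised 1 ChIP library and 1 input library, both from IMR-32 cells, an established human neuroblastoma line with MYCN amplification, with the genotype WT and no treatment named. The sample label names a NeuroD1 antibody, whereas the supplementary ChIP-seq methods of the study name an antibody against acetylated H3K27. The paper itself describes NeuroD1 ChIP-seq and lists a NeuroD1 antibody from the supplier on the label. It reports acetylated H3K27 by a separate method, CUT&Tag. The peak list was used as labelled. The input was not analysed here. There was no replicate, the total read number is unknown, and every interval below covers counting error only.

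NeuroD1 is a basic helix-loop-helix (bHLH) transcription factor that drives neuronal differentiation and pancreatic endocrine development. It pairs with E proteins and recognises E-boxes, written CANNTG, with CAGCTG as a common form and CAGATG as another. Such factors can bind at several places around 1 gene, either within its promoter or across introns and flanking enhancers, and a group of close peaks is the footprint that this would leave in a peak list.

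Letters were available around summits that lay in a listed promoter window, which runs from 250 bases before to 50 bases after a RefSeq gene start (GRCh38.p14). Of the 374 group peaks, 68 had the 101 bases around the summit inside such a window. The windows below are a selection and not a ranking. They include some high peaks of the groups, both neurogenic bHLH genes with a group, the promoters richest in E-boxes, and TLE6. The highest window, at ZNF687-AS1 with a fold enrichment of 23.7, is not shown and held 0 CANNTG and 2 CCAAT. They run 5′ to 3′ on the strand of the gene (coordinates on hg38) and stop before the listed start. Capitals mark the E-box CANNTG, the CCAAT box, the GC box GGGCGG and the string AAACCCGG, each on either strand. AAACCCGG was picked after its counts in these same summit windows were seen, so its marks here are a description only.
MNT, chr17:2401095-2401195, minus strand: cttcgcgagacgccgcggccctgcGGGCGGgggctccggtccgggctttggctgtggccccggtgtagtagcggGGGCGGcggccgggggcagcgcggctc
ZNF687, chr1:151281334-151281434, plus strand: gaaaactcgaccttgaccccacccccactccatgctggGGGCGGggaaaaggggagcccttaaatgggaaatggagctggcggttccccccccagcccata
BAZ2A, chr12:56630344-56630444, minus strand: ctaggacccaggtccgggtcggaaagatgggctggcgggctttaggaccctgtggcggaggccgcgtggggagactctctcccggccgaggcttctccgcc
FLYWCH1, chr16:2911817-2911917, plus strand: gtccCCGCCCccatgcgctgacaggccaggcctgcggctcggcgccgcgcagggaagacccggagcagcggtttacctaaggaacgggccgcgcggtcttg
SPRED2, chr2:65432726-65432826, minus strand: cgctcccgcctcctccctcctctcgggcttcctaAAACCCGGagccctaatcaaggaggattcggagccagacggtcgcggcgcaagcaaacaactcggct
LRRC1, chr6:53794851-53794951, plus strand: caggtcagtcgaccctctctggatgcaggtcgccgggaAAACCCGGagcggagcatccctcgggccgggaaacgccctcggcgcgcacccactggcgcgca
CALR, chr19:12938445-12938545, plus strand: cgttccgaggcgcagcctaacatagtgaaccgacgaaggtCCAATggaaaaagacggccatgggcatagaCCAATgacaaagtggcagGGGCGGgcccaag
MRPL34, chr19:17305472-17305572, plus strand: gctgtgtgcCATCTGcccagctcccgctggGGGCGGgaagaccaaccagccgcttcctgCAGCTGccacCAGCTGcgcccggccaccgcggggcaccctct
NHLH1, chr1:160366868-160366968, plus strand: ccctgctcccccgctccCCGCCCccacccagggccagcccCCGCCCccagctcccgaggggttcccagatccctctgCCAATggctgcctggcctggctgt
NHLH2, chr1:115841127-115841217, minus strand: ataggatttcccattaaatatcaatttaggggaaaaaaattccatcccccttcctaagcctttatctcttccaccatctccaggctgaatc
TLE6, chr19:2977326-2977426, plus strand: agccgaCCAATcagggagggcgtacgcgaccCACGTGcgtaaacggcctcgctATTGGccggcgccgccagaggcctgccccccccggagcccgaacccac
ZBTB18, chr1:244051178-244051278, plus strand: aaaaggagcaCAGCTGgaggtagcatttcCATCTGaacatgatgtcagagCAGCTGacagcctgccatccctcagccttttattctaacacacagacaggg
The MNT, ZNF687, BAZ2A and FLYWCH1 summits, at fold enrichments of 23.6, 20.7, 21.9 and 19.8, had no CANNTG in the letters shown. The MRPL34 and ZBTB18 summits, at 13.2 and 5.64, each had 3. The letters shown for NHLH1 and NHLH2 held none, and those for NHLH2 stop at the start and so cover 91 of the 101 bases.

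CANNTG occurred in 25 of the 68 group windows (36.8%, exact Clopper-Pearson 95% interval 25.4 to 49.3%). It occurred in 26.9% of 1332 windows of single peaks (24.5 to 29.3%) and in 33.1% of the middle 101 bases of all 34943 listed promoter windows. The interval of the groups covered both values, so a difference was not detectable at this number of windows. Summits outside the listed promoter windows were not examined, so these shares do not describe distal peaks. For its NeuroD1 binding sites, the paper reports significant enrichment of NeuroD1 motifs by HOMER. CAGCTG, which CANNTG includes, was found in 8.82% of group windows and 6.03% of all promoters, and CAGATG in 5.88% and 4.95%. The promoter element CCAAT was found in 41.2% of group windows (29.4 to 53.8%), in 39.4% of windows of single peaks, and in 18.4% of all promoters. The GC box GGGCGG was found in 54.4% of group windows (41.9 to 66.5%), in 52% of windows of single peaks and in 26.7% of all promoters. The median GC content was 70.3% in group windows against 59.4% in all promoters. Among the 9226 promoters whose GC content lay within the quartiles of the group windows, 27.9% held CANNTG, 6.88% CAGCTG, 2.86% CAGATG, 18% CCAAT and 42.5% GGGCGG. Neighbouring windows of a group can share a promoter and are not independent, and a match is a description of letters, not of a bound site.

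Most groups were small and compact. Of the 112 groups, 86 had 3 peaks, 19 had 4, 5 had 5, 1 had 7 and 1 had 8. The span from the start of the outermost peak to the end of the last had a median of 10.4 kb (quartiles 4.58 to 14.3 kb) and ran from 775 bp at CYP2R1 to 61.6 kb at TCF20. The 262 gaps inside groups had a median of 2774.5 bp (quartiles 656 to 7246 bp) and ran from 55 to 12419 bp. Of these gaps, 82 (31.3%) were at most 1 kb and 58 were at most 500 bp. When peaks under 500 bp apart were counted as 1 site, 81 groups remained. At the limit of the rule, 5 groups needed a gap over 12 kb, and 15 gaps were over the limit but at most 13 kb, the shortest of them 12524 bp. Of those 15, 7 would have made a further group and 0 would have enlarged a kept group.

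The fold enrichment compares the number of stacked ChIP fragments at a summit with that predicted locally, after 1 is added to both. Group peaks had a median of 7.201 (quartiles 5.91 to 9.64), pairs 7.05 and single peaks 6.79. Within a group the highest peak was a median of 1.74 times its lowest, with a range of 1.06 to 5.83. A peak of at least 10 was present in 58 groups, 2 or more such peaks in 24, and a peak of at least 20 in 12. The peaks of 4 groups were all at least 10, and these lay beside ARID1A, in KIAA1614, near CHRNB4 and at chr17:74011929-74016415 in a region without a protein-coding gene. The highest group peak, at 29.9 in KDM6B, was rank 24 of the whole list, where single peaks reached 70.0.

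KDM6B, which encodes a demethylase of histone H3 lysine 27, held 3 peaks within 1.59 kb at chr17:7835570-7837161. The weaker 2 had fold enrichments of 6.57 and 6.36 and 14 ChIP reads each (95% interval from the exact Poisson distribution, 7.65 to 23.5), and the third peak reached 29.9 with 74 reads (58.1 to 92.9). All 3 lay inside the gene, 1.35 to 2.60 kb from the listed start.

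NFATC4, a calcineurin-dependent transcription factor, carried 3 peaks within 2.31 kb at chr14:24366701-24369008. Its fold enrichments were 27.9, 6.38 and 6.75, with 57, 15 and 13 reads, and all 3 peaks were within 1 kb of the listed starts. ZNF687, a zinc finger gene, showed a different pattern over 1.43 kb at chr1:151281247-151282677. A pair of high peaks of 20.7 (51 reads, 38.0 to 67.1) and 23.7 (55 reads, 41.4 to 71.6) covered the start of ZNF687 and that of its antisense gene ZNF687-AS1, and the third peak had 6.09. The Poisson intervals of the first 2 overlapped.

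MNT encodes a bHLH partner of MAX that antagonises MYC. Its 4 peaks spanned 9.12 kb at chr17:2392741-2401860. The peaks at the start and 400 bp from it reached 23.6 (48 reads) and 23.1 (47 reads), and those farther into the gene had 5.79 and 4.58. Both strong summits had the lowest background of the list, 1.04 in pileup units.

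SIN3A, the scaffold of a histone deacetylase complex, had 4 peaks in 3.76 kb, of which the peak over the start reached 17.8 and a second peak inside the gene reached 12.7. TLE3, a Groucho-type co-repressor, had 4 peaks over 14.6 kb that were higher farther from the gene, with 5.35 inside it and 5.71, 15.5 and 19.3 outside it, the last 13.3 kb from the start. TLE6, of the same family, had values of 8.20 at the start and 11.6 and 20.4 within the gene, 5.39 and 6.38 kb from the start. BAZ2A, a subunit of the complex that silences ribosomal DNA, had 21.9 over its start, 7.98 at 490 bp from another of its listed starts, and 5.64 in the neighbouring gene ATP5F1B, which encodes the beta subunit of mitochondrial ATP synthase.

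ARID1A encodes a subunit of the BAF chromatin remodelling complex. The 3 peaks beside it, at chr1:26692183-26695836, had fold enrichments of 12.53, 16.9 and 20.2, with 25, 34 and 41 reads. The last lay 179 bp from the ARID1A start, and all 3 lay in the predicted gene LOC124900417. SPRED2, which restrains RAS to ERK signalling, had peaks 46 bp, 3.08 kb and 3.74 kb from its listed start, at 19.1, 22.7 and 7.40, outside the gene body. FLYWCH1, a FLYWCH zinc finger gene, had 19.8 over its start and 6.27 and 8.68 about 6 kb away.

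ZBTB7B encodes a zinc finger factor best known from CD4 T cells. Its highest peak, 28.1 with 85 reads (67.9 to 105), was the group peak with the most reads and lay 1.44 kb from the start, outside the gene. The next peak, 289 bp from the start, was at 11.9, and a peak 9.30 kb away was at 7.15. GLI1, the transcriptional effector of Hedgehog signalling, held the 2 higher of 4 peaks, 13.4 and 19.6, while the lower values of 6.21 and 8.37 were outside it. REXO1 and KLF16, an RNA exonuclease gene and a Krüppel-like factor gene, shared a group of 3. The highest peak, 18.2, was inside KLF16, the REXO1 start had 7.49, and a peak 518 bp from the KLF16 start had 8.20.

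The largest group by number and span held 8 peaks over 61.6 kb at chr22:42304023-42365643. Its first 5 peaks lay in TCF20, a transcriptional coregulator gene, at 8.15, 11.4, 13.5, 7.23 and 6.21. The other 3, toward LINC01315, were at 13.01, 9.17 and 4.83. None was within 1 kb of a listed start, and the 7 gaps were even, from 6332 to 11143 bp. The group of 7 peaks at chr17:44199811-44222148 was of the opposite kind. It covered the starts of ATXN7L3, a subunit of the SAGA deubiquitinase module, and of UBTF, a transcription factor of RNA polymerase I. Of its 7 peaks, 6 were within 1 kb of a listed start, and the values ran from 4.71 to 9.01.

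The 5 groups of 5 peaks were modest in strength, with highest values between 9.71 and 11.8. In KCNN3, which encodes a small-conductance calcium-activated potassium channel, all 5 peaks lay inside the gene, 3.38 to 22.0 kb from its start, at 5.68, 7.85, 10.3, 7.57 and 10.6. MEF2D, a MADS-box factor of neurons and muscle, had 2 peaks within the gene at 8.33 and 5.30. The other 3, at 8.04, 5.10 and 11.8, lay 5 bp, 668 bp and 4.32 kb outside it. JUND, a subunit of AP-1, had 3 peaks in the gene, the highest of 10.8 over its start, and 2 more beside LOC124904653 at 5.79 and 9.64. The TBC1D16 and CCDC40 group, a Rab GTPase-activating protein gene and a cilium assembly gene, ran from 4.66 to 9.71. The last group lay outside protein-coding genes but beside CBX8, which encodes a Polycomb protein, and ran from 4.17 to 10.5. Its closest peaks, at 8.82 and 4.17, were 28 and 401 bp from the gene, and the farthest was 16.4 kb away. The nearest listed start was 89.8 kb or more from each peak, so a start of CBX8 itself may be unlisted.

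The group at chr15:78671489-78685738, with CHRNB4, a nicotinic acetylcholine receptor subunit, as the nearest protein-coding gene 9.85 kb away, had peaks of 14.4, 28.8 and 12.51 with 46, 79 and 33 reads. A group of 4 at chr17:48003046-48023632, nearest to the coatomer subunit gene COPZ2, had 20.6 and 21.7 in 2 wide peaks of 1059 and 741 bp, the latter 505 bp from the listed start of LOC124904017, and 3.73 and 9.29 in the others. It held the most reads of any group, 203 summed over its summits, at a median background of 2.74. A group of 3 at chr19:4581704-4585120 lay over the non-coding gene LOC105372249, with the semaphorin gene SEMA6B as the nearest protein-coding gene, at 21.2, 12.05 and 7.24, with a listed start inside 2 of the peaks. KIAA1614 had 17.5, 12.7 and 12.7 inside the gene, 9.98 kb or more from a listed start.

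**Figure D1:**
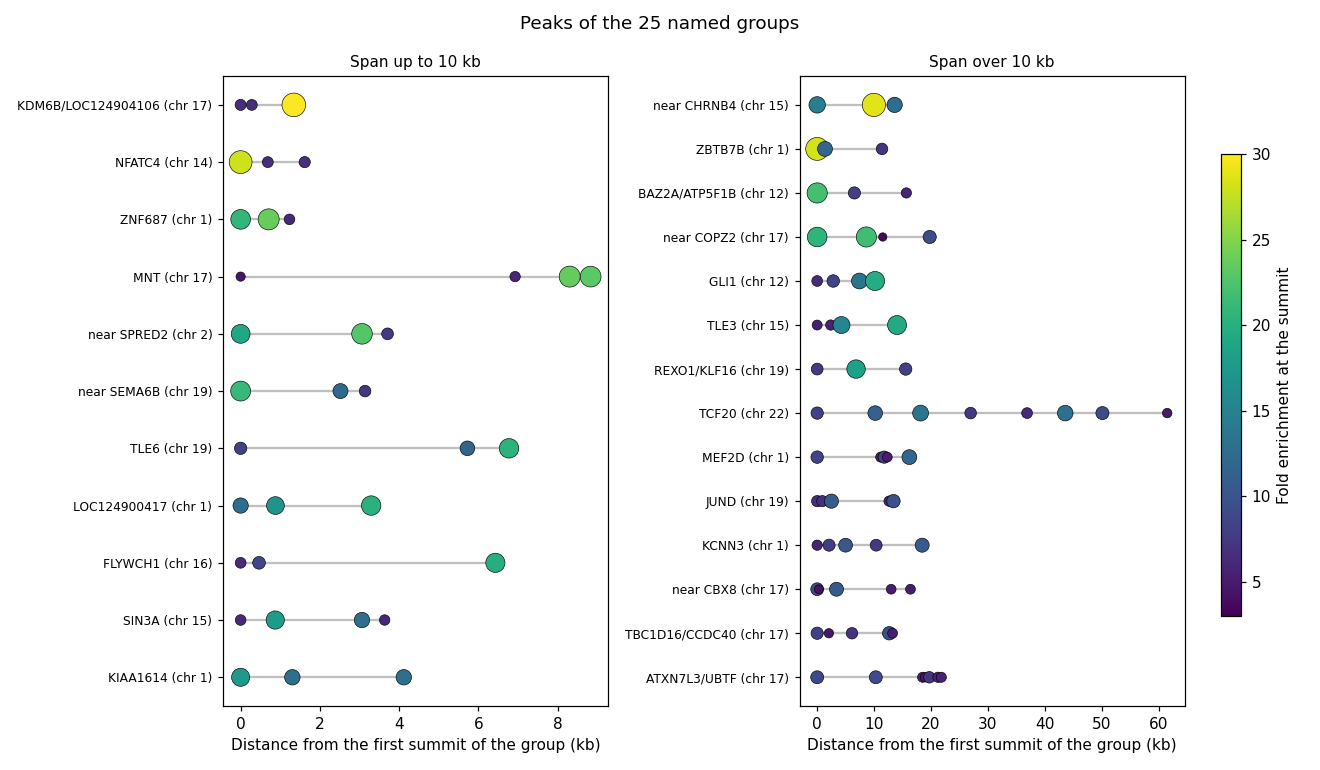
Peaks of the 25 groups named by rule, by distance from the first summit of each group (x axis, kb) with 1 line per group; colour and area give the fold enrichment. Groups spanning up to 10 kb are on the left and longer ones on the right; TCF20 extends to 61.5 kb, and KDM6B has the highest single value, 29.9, beside 2 peaks under 7.

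By their relation to genes the groups fell into 3 kinds. In 33 groups all peaks shared a protein-coding gene, in 23 no peak lay in a protein-coding gene, and the other 56 were mixed. Of the 33 intragenic groups, 17 had no peak within 1 kb of a listed start and 8 had every peak there. Examples without a start peak, named after their values were seen, were KCNJ6 and KCNIP1 (a potassium channel and a channel-interacting protein), MSI2 (an RNA-binding protein), ETV5 (an ETS factor) and BICD1 (a dynein adaptor). The 23 groups outside protein-coding genes had their nearest protein-coding gene at a median of 22.0 kb and at most 506 kb, and 6 of them came within 3 kb of 1. In all, 71.7% of group peaks (66.8 to 76.2%) lay in a gene of any type, against 71.3% of all kept peaks.

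Of the group peaks, 141 (37.7%, 32.8 to 42.8%) lay within 1 kb of a listed gene start, against 43.1% of all kept peaks on chromosomes with listed starts, 42.7% of pairs and 43.7% of single peaks. At this distance the share of the groups was near the background and slightly under it. Starts were listed for 79.1% of protein-coding genes, and when either end of a gene without a listed start was counted too, the shares were 42.8% for groups and 48.3% for all kept peaks. Within 3 kb of a listed start they were 48.1% and 47.4%. On chromosome 17 the share within 1 kb was 44.2% for group peaks (34.9 to 53.9%) and 43.0% for all kept peaks. On the other chromosomes it was 34.9% (29.1 to 41.0%) and 43.1%. At least 1 start peak was present in 68 groups and none in 44.

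The share moved with the span of the group. It was 56.2% in groups spanning up to 5 kb (45.7 to 66.4%), 41.5% in groups from 5 kb up to the joining limit (33.0 to 50.5%) and 22.3% in longer groups (15.9 to 29.9%). The intervals of the shortest and longest classes did not overlap. Peaks of a short group lie close together by construction, so a start near 1 of them tends to be near the others, and peaks of a group are not independent of each other. Every peak was near a start in 12 of 31 groups in the shortest class, 5 of 41 in the middle class and 1 of 40 in the longest. In 12 of these 18 groups, the nearest starts belonged to 2 or more genes. In the 50 groups with both kinds of peak, 50.3% of all their peaks were near a start. The highest peak was near a start in 33 of these 50 groups.

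**Figure D2:**
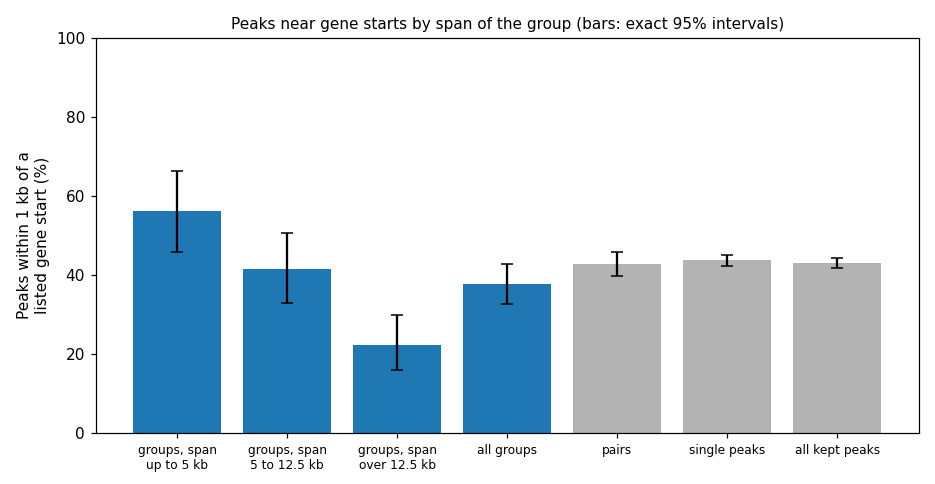
Share of peaks within 1 kb of a listed gene start (y axis, %) in groups by span, in all groups, pairs, single peaks and all kept peaks; error bars are exact 95% intervals of counting error. The share is 56.2% in groups up to 5 kb and 22.3% in groups longer than the joining limit, on either side of the 43.1% of all kept peaks.

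Compact groups at gene starts, named after their values were seen, show how close calls built a group. CYP2R1, a vitamin D 25-hydroxylase gene, had 3 peaks of 10.1, 6.27 and 8.20 within 775 bp. SETD5 and THUMPD3-AS1 had 4.91, 5.79 and 6.27 within 853 bp, with gaps of 55 and 182 bp. PRKAR1A, a regulatory subunit of protein kinase A, had 7.36, 4.32 and 4.86 within 985 bp. CALR, the calcium-binding chaperone calreticulin, had 13.5 over its start after 6.75 and 6.27 upstream. Of the 10 groups spanning under 2 kb, 9 had a peak near a start and in 8 every peak was near a start.

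Of 20037 protein-coding genes, 170 had a group peak in the body or within 3 kb (0.848%), and 4276 had any kept peak there (21.3%). The group at chr5:141508895-141524999 alone gave 23 of the 170, DIAPH1 and overlapping protocadherin gamma genes that were each counted. In the gene lists considered, 2 of 19 neurogenic bHLH, E protein and ID genes had a group, namely NHLH1 and NHLH2, which are related neuronal bHLH factors. NHLH2 had peaks of 5.98 over its start, 7.49 at 1.49 kb and 14.96 (41 reads, 29.4 to 55.6) at 11.7 kb. NHLH1 had 10.9 over its start (28 reads), 7.58 and 7.19 at 3.76 and 4.12 kb on one side, and 9.11 (30 reads) at 7.68 kb on the other. The strongest peak was thus distal at NHLH2 and over the start at NHLH1, where the Poisson intervals of the reads at 10.9 and 9.11 overlapped.

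Of the 19 adrenergic core genes, which mark the noradrenergic state of neuroblastoma, 8 had a peak and 1 had a group. That gene was TBX2, a T-box repressor, with 5.44, 4.12 and 4.49 in and beside it and none of its peaks above the median of all kept peaks, 6.87. Of 25 splicing factor genes, 15 had a peak and 2 a group. SRSF2, which shares its locus with MFSD11, had 4.51 and 8.23 in a group that also covered JMJD6 and METTL23, where the highest value was 11.9. HNRNPA1 had 7.69 and 4.25, next to 5.38 in CBX5, which encodes heterochromatin protein 1 alpha. None of 36 neuronal differentiation, 28 Notch, 22 catecholamine and dense-core vesicle, 35 axon guidance, 33 cell cycle and E2F, 20 mesenchymal and 7 deubiquitinase genes had a group, although 16, 14, 5, 18, 13, 7 and 6 of them had a peak. With so few genes per list, these counts describe the lists only.

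The groups were uneven over the genome. Chromosome 17 held 32 groups (28.6%) with 9.62% of the kept peaks, chromosome 19 held 15, chromosome 1 held 14 and chromosome 12 held 10. Chromosomes 1, 17 and 19 together had 54.5% of the groups and 26.3% of the kept peaks, and chromosomes 4, 8, 9, 10, 18 and X had none. On chromosome 17, 19.3% of the peaks lay in groups, and on chromosome 19, 13.5%. These were also the chromosomes with the most kept peaks per Mb, 7.12 and 6.28, against 0.186 on chromosome X. Closer peaks join more often by the rule alone, so the unevenness of the groups is not separate from that of the peaks.

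**Figure D3:**
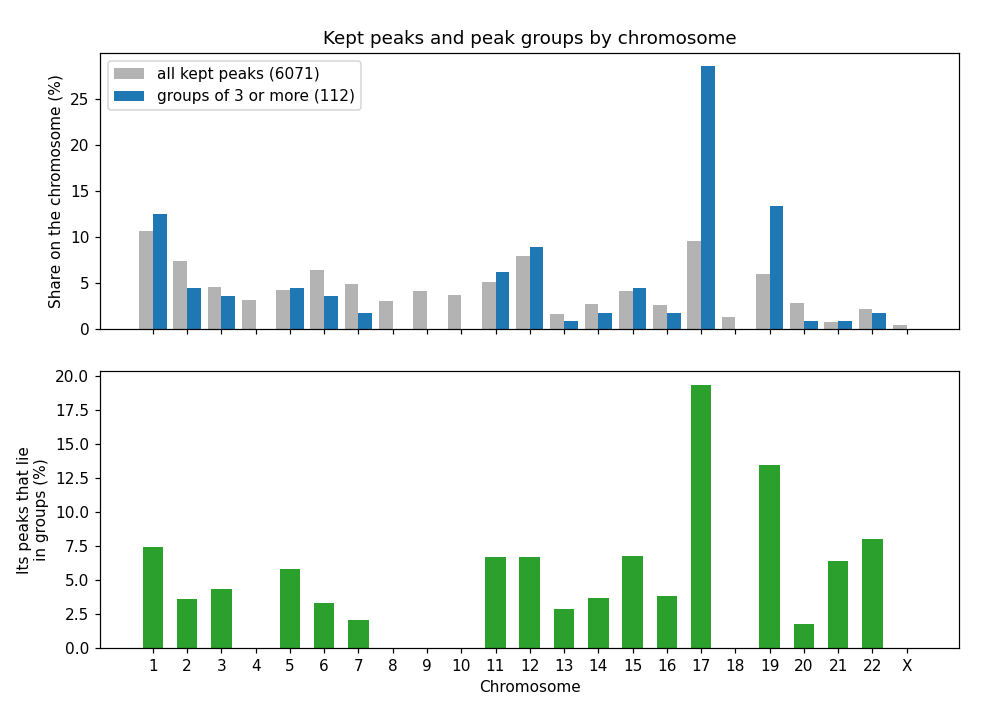
Upper bars give the share of all kept peaks (grey) and of groups (blue) on each chromosome (y axis, %), and lower bars the percentage of each chromosome's kept peaks that lie in groups. Chromosome 17 has 28.6% of the groups and 9.62% of the peaks.

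The background had a higher median under the groups than under single peaks. Solved for each summit from its −log10 p together with its fold enrichment, it had a median of 1.68 in pileup units at group peaks, 1.31 at pairs and 1.18 at single peaks, and the lowest background was found at 22.2% of group peaks and 36.6% of single peaks. On chromosome 17 the median was 2.48 for group peaks and 2.34 for single peaks, so both kinds were raised there. On the other chromosomes it was 1.39 and 1.17. Whether copy number, open chromatin or mappability contributes to this background was not tested.

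Peaks of at least 10 made up 23.3% of group peaks (19.1 to 27.9%), 19.2% of pairs and 14.1% of single peaks. On chromosome 17 these shares were 21.2% for groups and 18.6% for single peaks, and on the other chromosomes 24.1% and 13.7%. The median group peak had 19 ChIP reads at its summit (quartiles 15 to 27) against 16 for single peaks, and a median width of 237 bp against 215 bp. These values describe 1 library, in which neighbouring peaks share their background, and no test of the difference was made.

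**Figure D4:**
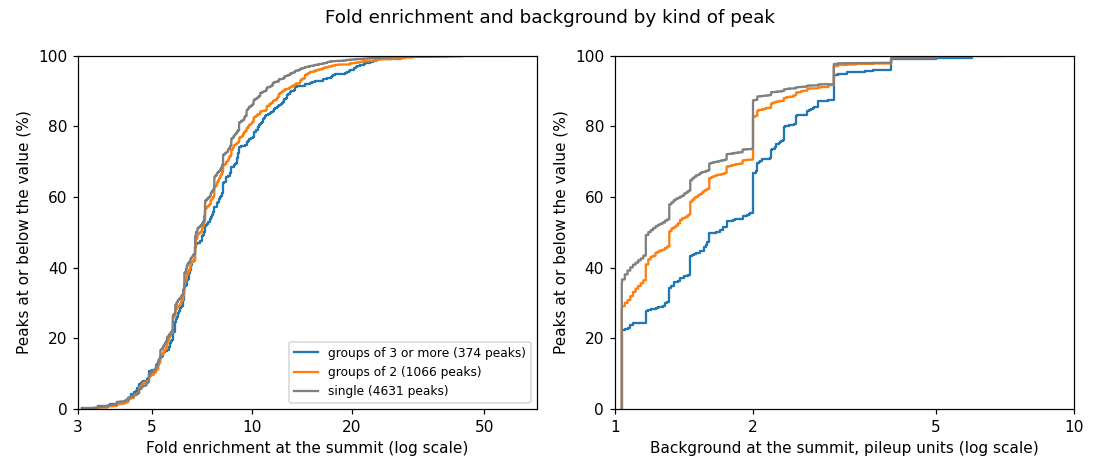
Cumulative share of peaks (y axis, %) against fold enrichment (left, log axis) and background in pileup units (right, log axis) for group peaks, pairs and single peaks. The fold enrichment curves are close at the lower quartile, 5.91 for group peaks and 5.79 for single peaks, and part above it. The medians are 7.20 and 6.79, and 23.3% of group peaks and 14.1% of single peaks reach at least 10. The background curve of the groups lies to the right, with a median of 1.68 against 1.18.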

How the data were processed

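NeuroD1 ChIP-seq of IMR-32 cells was taken from the peak list that was deposited for 1 ChIP library. The submitters' processing notes list BWA 0.7.17, MACS2 2.2.7 and hg38, whereas the peak names point to MACS3. The control used and the threshold on q are not given in the sources used here, and q values reached 0.0414. The deposited fold enrichment is a ratio of pileups. The other deposited columns are the −log10 of the p-value (Poisson), the −log10 of the q-value and a score that follows it, and a further score that was not used.

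Peaks were joined at the stated gap between edges. ChIP reads and background per summit were solved from the fold enrichment and p with a weight of 0.980 per read and a lowest background of 1.04, both derived from the 10 most frequent pairs of values, and the solver was checked on simulated peaks. Reads have exact Poisson intervals and shares exact Clopper-Pearson intervals, at 95%. Total depth is unknown. Genes, starts and sequences came from RefSeq (GRCh38.p14). The table of starts used here did not cover chromosome 8 or every protein-coding gene. Distances run from the edge of a peak, and 0 means that the start is inside it.

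Genes named by rule are those of every group of 5 or more peaks, then of groups by highest fold enrichment up to 25 groups (each protein-coding gene with a peak of the group, or the nearest gene), and every list gene with a group. The members, gene lists and motifs were chosen with earlier results of these data known. Motifs were searched on both strands within 50 bases of a summit, and CANNTG includes the other E-box forms. Alternatives were gaps of 5 and 25 kb, summit distances, stricter or merged peaks, the highest peak per group, other start definitions and, added after seeing the data, leaving out chromosome 17 and counting either end of genes without a listed start. The software was Python 3.11.15 with scipy 1.17.1, numpy 2.4.6, matplotlib 3.10.9 and pandas 2.3.3.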

Additional observations from a re-analysis of the deposited data

How the results depend on the processing

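No paired analysis was possible because there was 1 ChIP library, and no replicate could be left out. The number of groups depended on the gap, with 50 groups and 158 peaks at 5 kb and 214 groups and 766 peaks at 25 kb. It was 111 with gaps between summits, 82 at a −log10 q of at least 5, 89 at a fold enrichment of at least 5, 81 with peaks under 500 bp apart merged and 126 with the chromosome 2 windows kept. The median fold enrichment of group peaks was 7.96 at a −log10 q of at least 5, 7.85 at a fold enrichment of at least 5 and 10.1 for the highest peak of each group, values that these settings raise by construction. The share within 1 kb of a start was 47.5% at a gap of 5 kb, 45.5% for the highest peaks, 48.1% within 3 kb and 32.6% for protein-coding starts. The share in a gene body was 61.0% for protein-coding genes, against 61.2% of all kept peaks. The median background was 1.53 at a fold enrichment of at least 5, 1.497 for the highest peaks and 1.39 without chromosome 17. For shifts that the settings do not explain by construction, the cause was not tested. In all, 29 alternative values stayed within the spread or within 1.5 times the value reported. These included the counts of 111, 82, 89, 81 and 126 groups. The planned share of E-boxes at all summits was not run, since no genome was held, and the promoter windows were used in its place, a choice made after seeing the files. At a lowest summit count of 9 ChIP reads in a group, weak peaks can fall in or out of the list and so make or break a group of 3.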

Other observations

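A string of 8 letters outside the E-box family stood out when all strings of that length were counted in the summit windows of promoter peaks, and it was chosen after seeing the counts. AAACCCGG (or its reverse complement) was present in 37 of 1632 windows of kept peaks (2.27%), against 0.306% of the middle 101 bases of all listed promoters and 0.553% of the promoters with a GC content like that of the group windows. Among peaks with a fold enrichment of 10 or more, it was found in 22 of 264 windows outside groups (8.33%, exact 95% interval 5.30 to 12.3%) and in 2 of 14 windows in groups (14.3%, 1.78 to 42.8%). The 2 group windows were those at SPRED2, at a fold enrichment of 19.1, and at LRRC1, at 15.2. Over the same windows at a fold enrichment of at least 10, CANNTG was found in 20.5% outside groups and in 3 of 14 in groups, against 33.1% of all promoters and 27.9% of those with a GC content like that of the group windows. No factor is named for these letters here, and no test was made, since the string was picked from these same windows.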
